A study of Mus musculus with 55 samples.

Results

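Cholesterol synthesis in mouse lung was followed through 8 genes: Hmgcs1, Idi1, Fdps, Sqle, Lss and Cyp51, which encode enzymes of the pathway, and Insig1 and Srebf2, which encode its regulators. The genes were chosen with earlier results of these data known, and their probe sets were taken by gene symbol. All 19 probe sets of the Affymetrix whole-genome mouse array that are annotated with 1 of these symbols alone were read, out of 45037 probe sets. The array annotation gives 18193 genes a probe set of 1 symbol. Each of 55 arrays held the lung RNA of 1 male C57BL/6 mouse, 6 weeks old at the start and given 2 weeks to get used to its diet. In 8 groups the mice ate either AIN-76A, a purified diet, or LRD-5001, a standard rodent chow, and on each diet they received no added arsenic (AIN-76A control, n = 5, and LRD-5001 control, n = 4), 10 ppb sodium arsenite in the food (n = 5 and 5), 10 ppb in the drinking water (n = 4 and 4) or 100 ppb in the water (n = 3 and 3) for 5 weeks. In the other 4 groups, mice on AIN-76A received 1 injection into the abdominal cavity of saline (n = 5), dexamethasone at 1 mg/kg (n = 5), sodium arsenite at 1 mg/kg (n = 4) or both agents at these doses (n = 5), and the lungs were taken 8 hours later. Dexamethasone is a synthetic glucocorticoid. These numbers leave out 3 arrays of poor signal, so that 52 mice were compared.

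Cholesterol is built from acetyl-CoA. HMG-CoA synthase (Hmgcs1) starts the mevalonate arm, isopentenyl diphosphate isomerase (Idi1) and farnesyl diphosphate synthase (Fdps) turn its product into farnesyl diphosphate, and squalene epoxidase (Sqle), lanosterol synthase (Lss) and lanosterol demethylase (Cyp51) belong to the sterol arm. Srebf2 encodes the sterol regulatory element binding protein that switches these genes on together when membrane sterol is low. The Insig1 protein holds that factor in the endoplasmic reticulum when sterol is plentiful, and Insig1 is itself one of its targets. In the lung, alveolar type II cells need sterol and phospholipid for surfactant, and macrophages take up and export cholesterol.

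Srebf2 acts on these genes together with NF-Y and Sp1, so stretches of DNA upstream of them that hold a CCAAT are shown. RefSeq promoters on GRCm38.p6, running from 250 bases before the start of the gene to a short way past it, were found for 6 of the 8 genes. The sequences below are read 5′ to 3′ along the gene's own strand, and capitals mark CCAAT, the core of an NF-Y site (ATTGG where it lies on the other strand), or CACNCCAC, the core of a sterol regulatory element. The CACNCCAC of Insig1, close to the gene's start, lies outside the stretch shown.
Hmgcs1, chr13:119690101-119690350, plus strand: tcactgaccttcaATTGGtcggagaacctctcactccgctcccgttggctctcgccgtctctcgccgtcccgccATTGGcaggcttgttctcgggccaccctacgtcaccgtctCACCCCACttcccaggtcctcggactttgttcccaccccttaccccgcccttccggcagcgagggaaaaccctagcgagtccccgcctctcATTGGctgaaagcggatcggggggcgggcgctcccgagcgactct
Idi1, chr13:8885552-8885605, plus strand: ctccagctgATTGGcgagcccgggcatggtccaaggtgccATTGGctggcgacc
Lss, chr10:76531503-76531587, plus strand: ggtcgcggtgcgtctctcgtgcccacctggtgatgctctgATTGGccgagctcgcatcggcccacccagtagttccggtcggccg
Cyp51, chr5:4104698-4104766, minus strand: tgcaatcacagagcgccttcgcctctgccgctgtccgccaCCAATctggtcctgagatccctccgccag
Insig1, chr5:28071162-28071240, plus strand: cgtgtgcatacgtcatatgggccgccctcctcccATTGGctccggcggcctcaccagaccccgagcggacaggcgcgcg
Srebf2, chr15:82147094-82147178, plus strand: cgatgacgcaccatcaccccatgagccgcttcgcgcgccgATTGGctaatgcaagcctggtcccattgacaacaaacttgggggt

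CCAAT was found in the whole window of 6 of 6 of these genes on 1 strand or the other, against 37.5% of the promoters of 27025 genes, and against 39.5% of those of the 9635 genes that this lung RNA showed above a log2 value of 5 on at least 4 arrays. Hmgcs1 held 3 copies, starting at positions -237, -176 and -45 from the gene's start, and Idi1 held 2. GGGCGG, the core of an Sp1 site, was also in 6 of 6, against 35.4% of all promoters and 63.4% of those of the genes measured in lung. CACNCCAC was in 2 of 6, in Hmgcs1 at position -136 and in Insig1 at position -9, against 6.05% of all promoters, and the longer TCACNCCAC, which contains it, was in Hmgcs1 alone of the 6, against 1.22%. Among 11 other enzymes of the pathway with a promoter in the table, CCAAT was in 11, GGGCGG in 10 and CACNCCAC in 0. All motifs were searched on both strands. A match of letters is a description of the window and not a measured binding site.

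**Figure D1:**
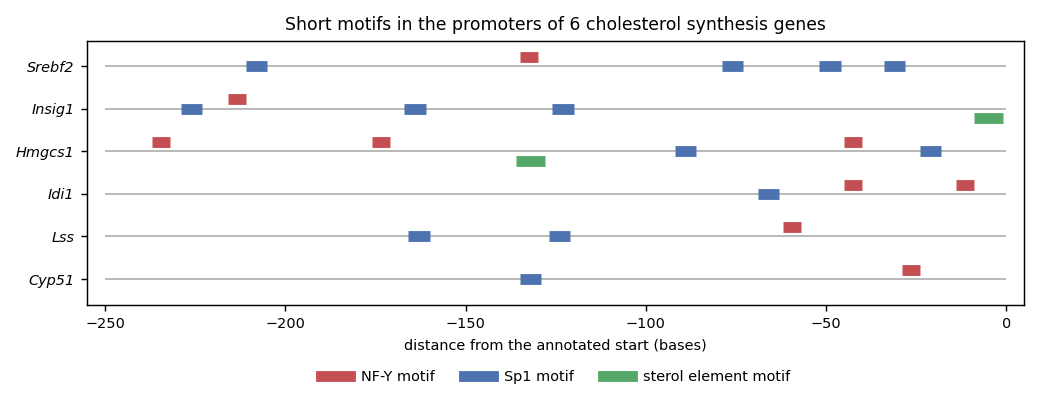
Position of the 3 motifs upstream of the 6 genes with a RefSeq promoter, in bases from the gene's start on the horizontal axis and with 1 gene in each row. CCAAT is in every row, Hmgcs1 holds 3 copies, and CACNCCAC is in the rows of Hmgcs1 and Insig1 alone.

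The values are log2 signals that the authors computed by RMA (robust multi-array average), so a difference of 1 is a 2-fold difference and levels of different probe sets cannot be set against each other. For each gene the probe set with the highest mean was taken as the gene's value and the others were kept as a check. All 8 brightest probe sets were above a log2 value of 5 on 52 of 52 arrays, with means from 6.54 for Lss to 10.12 for Hmgcs1. Of the other 11 probe sets, 4 (1 each of Hmgcs1, Fdps, Lss and Cyp51) never reached that value. The lung label held: surfactant protein C (Sftpc), the product of alveolar type II cells, had group means between 14.06 and 14.24. The arrays fall into 5 batches of 11 by the start of their raw file names, and no injected arsenite mouse was kept in batches 1 or 3, where 3 of the 5 saline mice lie. Whole lung was used, so fewer cells of a type and less RNA per cell cannot be told apart. The labels name each sample as a separate mouse.

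In no comparison did any of the 8 genes, or any of the 19 probe sets, pass the test (limma, Benjamini-Hochberg adjustment over 45037 probe sets, adjusted p under 0.05). This held for 18 comparisons. The share of all probe sets that passed was itself low: 0.16% for diet over all chronic mice, 0.0111% for the LRD-5001 controls against the AIN-76A controls, 0.626% for dexamethasone, 0.755% for dexamethasone with arsenite and 0.622% for dexamethasone with arsenite against arsenite, and 0% in the other 13. Below that threshold the clearest pattern was one of direction. After arsenite and after dexamethasone with arsenite, 8 of 8 genes were below saline, while over all probe sets the medians were 0.01 and 0.00.

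**Figure D2:**
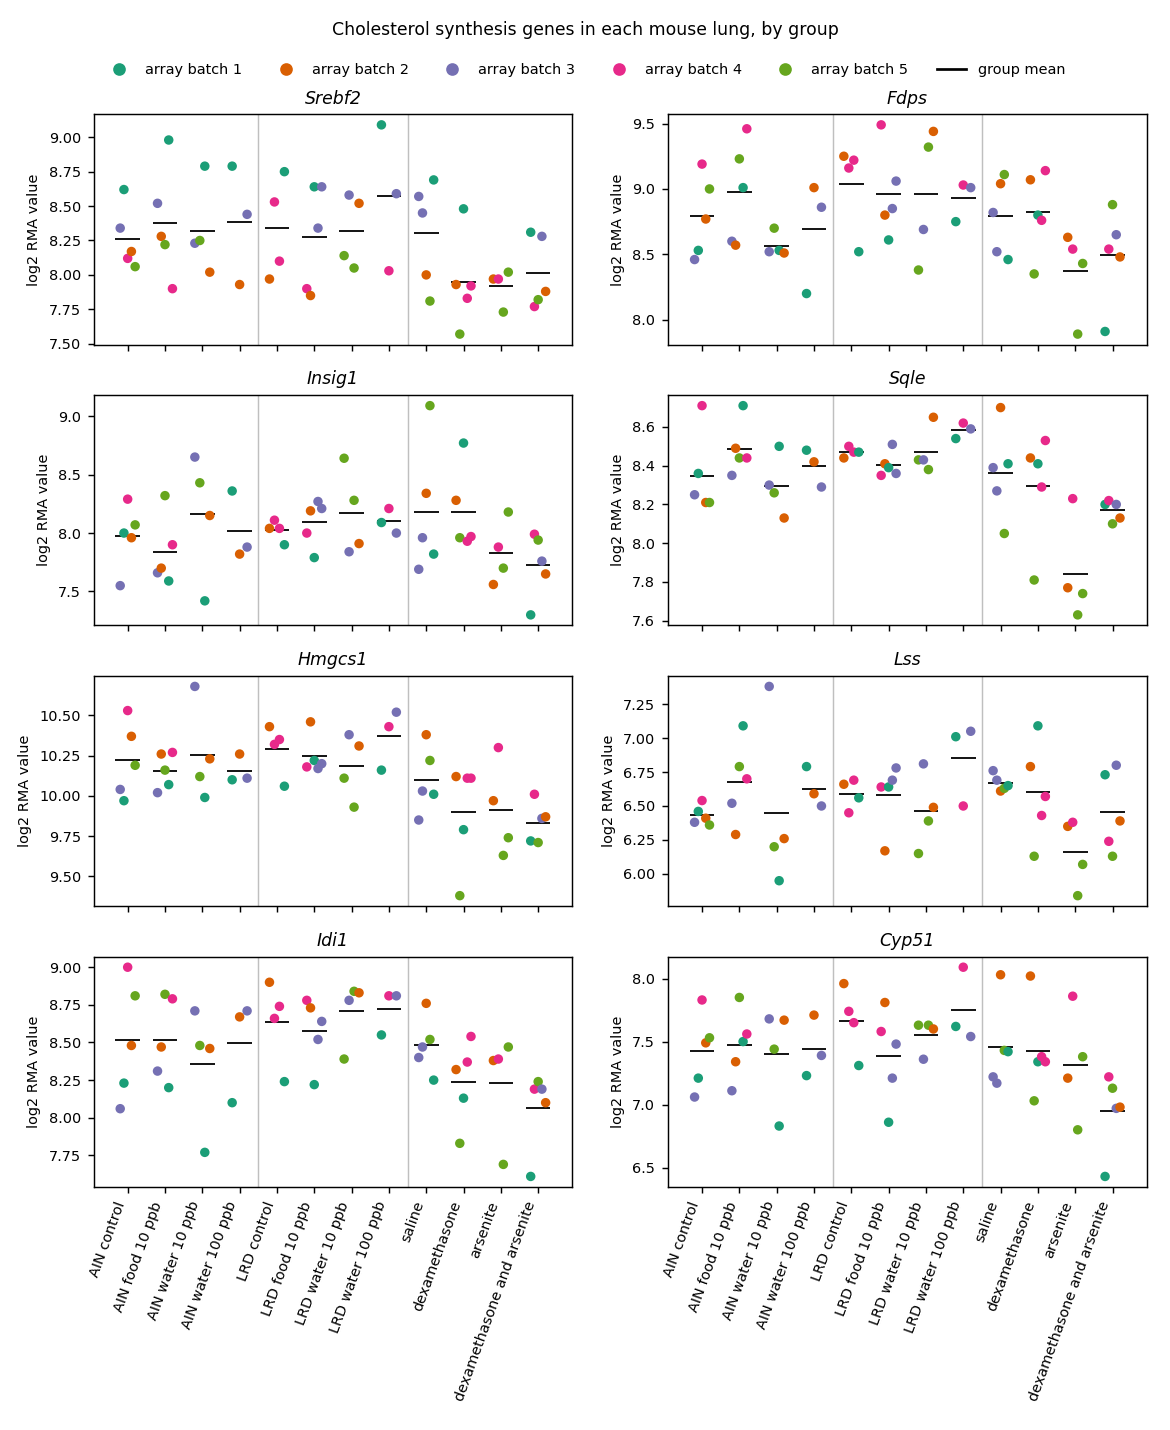
Log2 RMA signal of the brightest probe set of each of the 8 genes (1 panel each) in the 12 groups, with 1 point for each of the 52 mice coloured by array batch and a line at the group mean. The arsenite or the dexamethasone with arsenite group has the lowest mean in every panel, and the points of nearly all groups overlap.

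Srebf2, the factor that drives the pathway, had means of 8.26 ± 0.22 (SD) in the AIN-76A controls, 8.38 ± 0.40 with arsenite in food, 8.32 ± 0.33 with 10 ppb and 8.39 ± 0.43 with 100 ppb in water. On LRD-5001 the means in the same order (control, food, 10 ppb and 100 ppb in water, used for all genes) were 8.34 ± 0.36, 8.27 ± 0.38, 8.32 ± 0.27 and 8.57 ± 0.53. Among injected mice, saline replicates B, C, D, E and F were at 8.57, 8.45, 8.00, 7.81 and 8.69, and dexamethasone replicates A, B, C, E and F at 7.93, 7.57, 8.48, 7.83 and 7.92. The saline mice were spread over almost the whole range of the injected groups. Arsenite replicates A, B, C and F were at 7.97, 7.97, 7.73 and 8.02, and those with both agents, A, C, D, E and F, at 8.31, 7.77, 7.82, 8.28 and 7.88. The arsenite values were close together and overlapped the lower saline values. The change from saline was -0.36 after dexamethasone, -0.38 after arsenite and -0.29 after both, none called. Srebf2 moved with the batch: 79.7% of its variance within groups did so, against a median of 33.9% over 11927 genes, and mice of batch 1 were on average 0.43 above their group while those of batches 2, 4 and 5 had mean deviations of -0.18, -0.19 and -0.20. In the 2 batches that held both saline and arsenite mice, the difference was -0.04 and 0.06, and with batch in the model it was -0.03. The second Srebf2 probe set gave -0.33, -0.24 and -0.24 for the same 3 comparisons.

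Insig1, the brake on that factor, had means of 7.97 ± 0.27 in the AIN-76A controls, 7.83 ± 0.29 with arsenite in food, 8.16 ± 0.53 and 8.02 ± 0.30 with 10 and 100 ppb in water. On LRD-5001 they were 8.02 ± 0.09, 8.09 ± 0.20, 8.17 ± 0.37 and 8.10 ± 0.11. The lowest mean of the 12 groups was 7.73 ± 0.28 after both agents and the highest 8.18 ± 0.36 after dexamethasone, and no neighbours in that order differed by more than the SD within groups of 0.34. Saline mice B to F were at 7.69, 7.96, 8.34, 9.09 and 7.82, so 1 mouse stood well above the rest. Dexamethasone mice were at 8.28, 7.96, 8.77, 7.93 and 7.97, arsenite mice at 7.56, 7.88, 7.70 and 8.18, and mice given both at 7.30, 7.99, 7.94, 7.76 and 7.65. The log2 difference of Insig1 from saline was -0.35 after arsenite and -0.45 after both, and all 3 treated ranges overlapped that of saline. Saline mouse E, the highest for Insig1, also had the highest mean of the 5 fat marker genes measured, 10.41 against 5.81 to 8.32 in the other saline mice. Without saline mice D and E, the 2 richest in fat markers, the change after arsenite was 0.01 and after both agents -0.09. No arsenite mouse was kept in the batches of the saline mice left, so that arsenite value cannot be told apart from batch.

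Hmgcs1 had a mean of 10.22 ± 0.23 in the AIN-76A controls, 10.15 ± 0.11 with arsenite in food, 10.25 ± 0.30 and 10.15 ± 0.09 with 10 and 100 ppb in water, and 10.29 ± 0.16, 10.25 ± 0.12, 10.19 ± 0.20 and 10.37 ± 0.19 in the matching LRD-5001 groups. The chronic groups thus spanned little more than the SD within groups, 0.21. Among injected mice the saline values were 9.85, 10.03, 10.38, 10.22 and 10.01, those after dexamethasone 10.12, 9.38, 9.79, 10.11 and 10.11, those after arsenite 9.97, 10.30, 9.63 and 9.74, and those after both agents 9.72, 10.01, 9.71, 9.86 and 9.87 (replicates in the order given for Srebf2). The group given both agents was the lowest of the 12, at 9.84 ± 0.13, and differed from saline by -0.26 (exact permutation p = 0.0635, two-sided). A second, almost as bright probe set of Hmgcs1 did separate these groups, as 0.999% of all probe sets did. All mice given both agents were between 9.55 and 9.73 there, and the lowest saline mouse was also at 9.73 after rounding. The brightest probe set and every other Hmgcs1 probe set did not separate the groups.

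Idi1 varied more among mice of 1 group (SD within groups 0.29) and had AIN-76A means of 8.52 ± 0.39 in controls, 8.52 ± 0.28 with arsenite in food, 8.35 ± 0.41 with 10 ppb and 8.50 ± 0.34 with 100 ppb in water. The LRD-5001 means were 8.64 ± 0.28, 8.58 ± 0.23, 8.71 ± 0.21 and 8.72 ± 0.15. Saline mice had 8.40, 8.47, 8.76, 8.52 and 8.25, and the 5 mice given both agents 7.61, 8.19, 8.24, 8.19 and 8.10. Each of the latter was below each saline mouse, as in 0.999% of all probe sets, the nearest pair being 8.24 and 8.25. The difference was -0.41 (SE 0.16, 95% interval -0.75 to -0.08, limma adjusted p = 0.351), the exact permutation test gave a two-sided p of 0.00794, the smallest that 5 against 5 allows, and Idi1 was lower in each of the 4 batches that held both groups, with differences from -0.66 to -0.25. After dexamethasone alone Idi1 was at 8.32, 7.83, 8.13, 8.37 and 8.54, and after arsenite alone at 8.38, 8.39, 7.69 and 8.47, both overlapping saline. The second Idi1 probe set overlapped saline after both agents too (5.02 to 5.72 against 5.35 to 6.55).

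Fdps, which makes the farnesyl diphosphate used for sterols, dolichol and protein prenylation, had its lowest mean after arsenite, 8.37 ± 0.33, and its highest in the LRD-5001 controls, 9.04 ± 0.35. The other chronic means were 8.79 ± 0.31, 8.97 ± 0.39, 8.57 ± 0.09 and 8.69 ± 0.43 on AIN-76A and 8.96 ± 0.33, 8.96 ± 0.51 and 8.93 ± 0.15 on LRD-5001, in the order used above. Saline mice were at 8.82, 8.52, 9.04, 9.11 and 8.46, arsenite mice at 8.63, 8.54, 7.89 and 8.43, mice given both at 7.91, 8.54, 8.88, 8.65 and 8.48, and dexamethasone mice at 9.07, 8.35, 8.80, 8.76 and 9.14. Arsenite mice C and F, mouse A of the combined group and dexamethasone mouse B were below every saline mouse, and the remaining mice lay within or above the saline range. The log2 difference of Fdps from saline was -0.42 after arsenite (-0.26 without arsenite mouse C), -0.30 after both (-0.15 without mouse A of that group) and 0.03 after dexamethasone.

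Sqle was the tightest of the 8 genes, with an SD within groups of 0.17 against a median of 0.24 over 11927 genes. Its AIN-76A means were 8.35 ± 0.21, 8.48 ± 0.13, 8.30 ± 0.15 and 8.40 ± 0.10, and its LRD-5001 means 8.47 ± 0.02, 8.40 ± 0.06, 8.47 ± 0.12 and 8.58 ± 0.04. The arsenite mice were at 7.77, 8.23, 7.63 and 7.74 and the saline mice at 8.39, 8.27, 8.70, 8.05 and 8.41. Of the 4 arsenite mice, 3 were below every saline mouse. The difference after arsenite was -0.52 (SE 0.15, 95% interval -0.83 to -0.21, limma unadjusted p = 0.00212, adjusted p = 0.623, exact permutation p = 0.0317, two-sided). Mice given both agents were at 8.20, 8.22, 8.10, 8.20 and 8.13, a difference of 0.33 from arsenite alone (limma adjusted p = 0.441) and of -0.19 from saline, and dexamethasone mice were at 8.44, 7.81, 8.41, 8.29 and 8.53. The step of 0.33 between the arsenite mean and the next group was the only 1 of 11 steps in the order of the means to exceed the SD within groups.

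Lss, which closes the sterol rings, was very even in the saline mice, at 6.76, 6.69, 6.61, 6.63 and 6.65. All 4 arsenite mice were lower, at 6.35, 6.38, 5.84 and 6.07, and its second probe set above background also separated the groups (5.12 to 5.67 after arsenite, 5.70 to 6.23 after saline). Lss was the only gene of the 8 whose arsenite and saline ranges did not overlap, and 0.699% of all probe sets were arranged this way. The difference was -0.51 (SE 0.17, 95% interval -0.86 to -0.15, limma unadjusted p = 0.00774, adjusted p = 0.65). The exact permutation test gave p = 0.0159, two-sided, the smallest that 4 against 5 allows. With batch in the model the difference was -0.25. The saline mice were themselves all above the 5 uninjected AIN-76A controls, which lay between 6.36 and 6.54, as 0.395% of all probe sets were (difference 0.24, exact permutation p = 0.00794, limma adjusted p = 0.999), and the arsenite values overlapped those controls.

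Lss overlapped saline in the other 2 injected groups, with 6.79, 6.13, 7.09, 6.43 and 6.57 after dexamethasone and 6.73, 6.24, 6.13, 6.80 and 6.39 after both agents. The chronic means were 6.43 ± 0.07, 6.68 ± 0.30, 6.45 ± 0.64 and 6.63 ± 0.15 on AIN-76A and 6.59 ± 0.11, 6.58 ± 0.24, 6.46 ± 0.27 and 6.85 ± 0.31 on LRD-5001. The wide spread with 10 ppb in AIN-76A drinking water came from mouse A, at 7.38, the highest Lss value of all 52 mice, while the other 3 were between 5.95 and 6.26. The same mouse had the highest Hmgcs1 value of the 52, 10.68, an Insig1 value of 8.65, and a fat marker mean of 9.68.

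Cyp51 was lowest in mice given both agents, at 6.43, 7.22, 7.13, 6.97 and 6.98, against 7.22, 7.17, 8.03, 7.43 and 7.42 in saline mice. The ranges met only at their edges. The difference was -0.51 (SE 0.21, 95% interval -0.95 to -0.07, limma adjusted p = 0.396, exact permutation p = 0.0159, two-sided), and the values differed by -1.05 to -0.23 in the 4 batches that held both groups. Against dexamethasone alone, with values of 8.02, 7.03, 7.34, 7.38 and 7.34, the combined group differed by -0.48 (exact permutation p = 0.0238, limma adjusted p = 1). Arsenite alone gave 7.21, 7.86, 6.80 and 7.38, which overlapped saline, and without arsenite mouse C that difference went from -0.14 to 0.03. Chronic means were 7.42 ± 0.30, 7.47 ± 0.27, 7.40 ± 0.40 and 7.44 ± 0.24 on AIN-76A and 7.66 ± 0.27, 7.39 ± 0.36, 7.55 ± 0.13 and 7.75 ± 0.30 on LRD-5001. Between the combined group, at 6.94, and the next lowest mean, 7.31 after arsenite, lay the only step in the order of the 12 means larger than the SD within groups of 0.32.

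**Figure D3:**
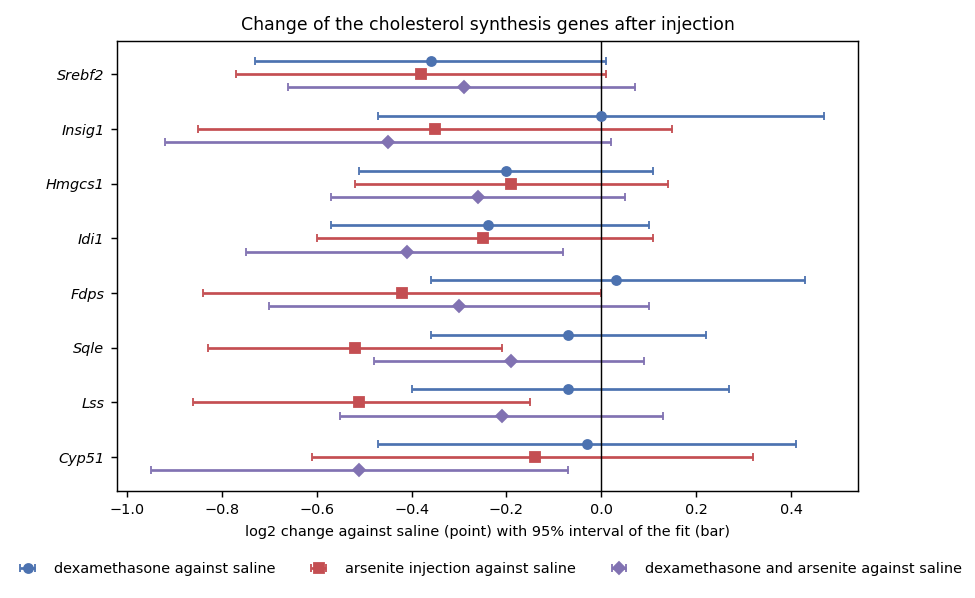
Log2 difference from saline (horizontal axis) with its 95% interval for the 8 genes after dexamethasone, arsenite and both agents. All 8 estimates lie below 0 after arsenite (-0.52 to -0.14) and after both agents (-0.51 to -0.19), against -0.36 to 0.03 after dexamethasone.

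Over the group of genes, injected arsenite left no gene past the threshold and all 8 estimates negative, with a median of -0.37 (-0.30 after both agents and -0.07 after dexamethasone, where 6 of 8 were negative). All 19 probe sets were below saline after arsenite and after both agents, where 46.7% and 48.5% of all probe sets were. These comparisons share the 5 saline mice, and the probe sets of a gene share its RNA. The genes also ran together among mice, with r above 0 in 22 of 28 pairs after group means were removed. The counts are therefore not separate observations. At an unadjusted p under 0.05, the genes were Sqle and Lss after arsenite, both lower (6.72% of all probe sets had such a p), Idi1 and Cyp51 after both agents, both lower (9.89%), Cyp51 after both agents against dexamethasone, lower (2.28%), and Sqle after both agents against arsenite, higher (10.2%). No gene had one after dexamethasone (9.05%), for saline against uninjected controls (3.75%) or for the interaction of the 2 agents (3.79%), whose estimates ran from -0.34 for Cyp51 to 0.45 for Srebf2. Of the 19 probe sets, 3 had such a p after arsenite, 6 after both agents and 1 after dexamethasone. For both agents, 2 had one against dexamethasone and 1 against arsenite. Non-overlap with saline was seen for 1 of 8 genes after both agents (Idi1, 0.999% of all probe sets) and 0 of 8 after dexamethasone (1.25%).

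Fat markers, lymphocyte markers and array batch also varied among the injected mice. All 5 measured fat markers were lower than saline after arsenite (median -1.86) and after both agents (median -1.75), none called, and the mean of the 5 ran from 5.81 to 10.41 in saline mice, 4.88 to 6.98 after arsenite, 5.44 to 6.52 after both agents and 5.90 to 9.47 after dexamethasone. Without saline mice D and E, 6 of 8 genes were below saline after arsenite, Sqle at -0.51, Lss at -0.54 and Srebf2 at -0.65, and Cyp51 and Insig1 were at 0.04 and 0.01. The saline mice left, B, C and F, were in batches where no arsenite mouse was kept. Those arsenite differences therefore cannot be told apart from batch. After both agents, also without saline mice D and E, 8 of 8 were below, from -0.56 to -0.09. Without arsenite mouse C, the differences after arsenite were -0.09 for Hmgcs1 and -0.07 for Idi1, in place of -0.19 and -0.25. In the 2 batches with both saline and arsenite mice, every gene but Srebf2 was lower in both, but the only saline mice there are D and E, the fat-rich mice. In the 4 batches with saline and combined mice, Hmgcs1, Idi1, Fdps, Cyp51 and Insig1 were lower in 4, Sqle and Srebf2 in 3 and Lss in 2. The part of fat and batch in the result was not tested. The mean of 4 T cell markers ran from 5.10 to 8.17 in saline mice, 5.22 to 5.96 after arsenite, 4.78 to 5.20 after dexamethasone and 4.55 to 5.09 after both agents, where it did not overlap saline. The mean of 5 thymus markers ran from 3.64 to 8.30 in saline mice. It ran from 3.62 to 3.98 after arsenite, 3.46 to 3.77 after dexamethasone and 3.42 to 3.71 after both agents. What thymus tissue adds to the T cell values was not tested. The mean of 3 B cell markers was 7.45 after saline, 7.25 after arsenite, 6.20 after dexamethasone and 5.64 after both, with none of the T or B cell markers called, and their part in the result was not tested either. Alveolar type II cell markers had a mean of 12.52 after saline, 12.44 after arsenite and 12.59 after both agents.

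The study's own rank product method was also run. At a share of false positives under 0.05 in either direction it listed none of the 8 genes in 13 comparisons, with 0.699% of all probe sets listed after arsenite, 2.35% after dexamethasone and 2.42% after both agents, 0.431% and 2.65% for both agents against dexamethasone and against arsenite, and 0.58% for saline against uninjected controls. In the chronic comparisons it listed 0.147%, 0.435% and 0.0244% for food, 10 ppb and 100 ppb water on AIN-76A, 0.167%, 0.135% and 0.206% on LRD-5001, and 0.562% for the LRD-5001 against the AIN-76A controls. At its plain p under 0.05, unadjusted for the number of probe sets, it listed Sqle, Fdps, Lss, Insig1 and Srebf2 as lower after arsenite (7.07% of all probe sets) and Idi1, Fdps, Cyp51, Insig1 and Srebf2 as lower after both agents (6.98%). It listed Fdps, Cyp51 and Insig1 as lower after both agents than after dexamethasone (4.36%), Srebf2 as lower after dexamethasone (6.97%), and, for both agents against arsenite, Sqle and Lss as higher (7.92%) and Cyp51 as lower (6.43%). In the chronic groups the listed genes were Fdps and Lss, higher with arsenite in AIN-76A food (4.57%), Cyp51, lower with arsenite in LRD-5001 food (4.31%), Srebf2, higher with 100 ppb in water on LRD-5001 (5.08%), and Fdps and Cyp51, higher in the LRD-5001 controls than the AIN-76A controls (4.73%).

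With 5 weeks of arsenite the 8 genes differed little from their controls and in no shared direction. On AIN-76A the differences from control ran from -0.14 to 0.24 with arsenite in food (6 of 8 higher), -0.22 to 0.19 with 10 ppb in water (4 higher) and -0.10 to 0.19 with 100 ppb (5 higher). On LRD-5001 they ran from -0.28 to 0.07 in food (1 higher), -0.13 to 0.14 at 10 ppb (3 higher) and -0.11 to 0.26 at 100 ppb (7 higher). None of the 8 genes had an unadjusted p under 0.05 in any of the 6, where 1.89%, 9.79%, 1.83%, 2.62%, 3.68% and 3.54% of all probe sets had one, in that order. Over the 8 genes and the 6 comparisons, the lowest end of a 95% interval was -0.65 and the highest 0.78. These 2 ends come from different comparisons and are not the error of any single gene. The lowest exact permutation p was 0.0571, for Sqle with 100 ppb in water on LRD-5001 (8.54 to 8.62 against 8.44 to 8.50 in controls), which is the smallest that 3 against 4 mice allow. The interactions of diet with arsenite likewise held none of the 8 genes at an unadjusted p under 0.05, where 1.98%, 11.3% and 2.45% of all probe sets had one for food, 10 ppb and 100 ppb water.

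All 8 genes were a little higher on LRD-5001 than on AIN-76A. Over the chronic mice the differences, averaged over the matching exposures, ran from 0.04 for Srebf2 to 0.22 for Fdps, with a median of 0.10, and 0 of 8 were called (limma adjusted p = 1 for each). Of the 19 probe sets 5 were lower, as were 49% of all probe sets. At an unadjusted p under 0.05 stood Sqle, at 0.10 (SE 0.05). Such a p was found for 3 of the 19 probe sets and for 4.21% of all probe sets. Between the 2 control groups the differences ran from 0.05 to 0.25, 8 of 8 higher, with no gene at an unadjusted p under 0.05 (4.14% of all probe sets). The difference for Srebf2 turned to -0.01 without AIN-76A mice A and E of the 10 ppb water group. Fat markers differed between the 2 control groups too, with a median of 1.59 and all 5 higher on LRD-5001. The mean of 5 liver markers ran from 4.13 to 11.19 in LRD-5001 controls and from 4.02 to 4.46 in AIN-76A controls. Heart muscle markers averaged 10.35 and 9.23 in that order, and skeletal muscle markers, lower on LRD-5001, 4.52 and 5.26. The part of these tissues in the diet difference was not tested.

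Mice that were high in 1 enzyme tended to be high in others. Correlations of the 8 genes over the 52 mice, after subtracting the group means, were above 0 in 22 of 28 pairs with a median Pearson r of 0.29. After batch means were removed as well they were above 0 in 25 of 28, with a median of 0.42. Idi1 and Fdps had r of 0.78 and, with batch removed, 0.66, Idi1 and Cyp51 0.76 and 0.64, and Hmgcs1 and Idi1 0.66 and 0.55. Srebf2 had a negative r to 4 of the 6 enzymes at first, with -0.51 to Idi1, -0.50 to Cyp51, -0.39 to Fdps and -0.31 to Hmgcs1, and a positive one to Lss (0.39) and Sqle (0.30). With batch removed these were 0.16, 0.11, 0.25, -0.02, -0.01 and 0.36, in that order. All values of a mouse share its RNA, array and normalization, and these correlations describe the 52 arrays only. The fat markers ran with part of the set: with group and batch removed, r to the fat marker mean was 0.50 for Insig1, 0.40 for Hmgcs1 and Lss, 0.38 for Cyp51, 0.07 for Sqle and -0.33 for Srebf2. Other tissues did so too. The brown fat marker mean had 0.50 to Lss, 0.43 to Insig1, 0.36 to Hmgcs1, -0.08 to Sqle and -0.37 to Srebf2. Skeletal muscle markers had 0.47 to Lss, 0.17 to Hmgcs1, -0.14 to Sqle and -0.20 to Srebf2. Srebf2 had an r of 0.51 to the alveolar type II marker mean on the same scale.

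**Figure D4:**
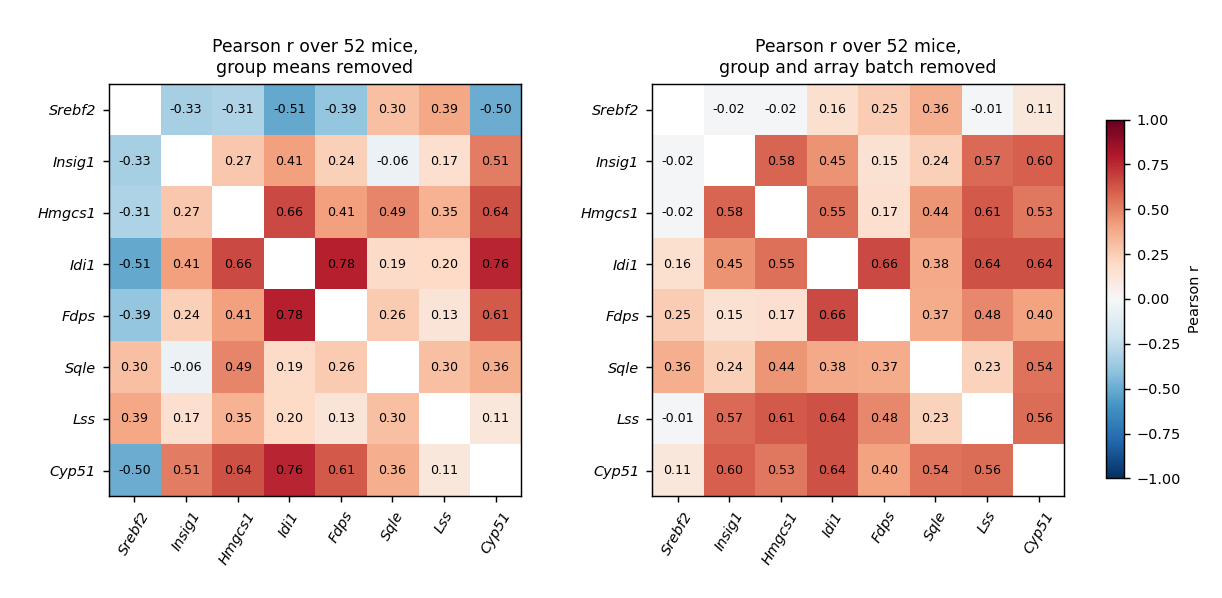
Pearson correlation (colour scale from -1 to 1) between the 8 genes over 52 mice, with group means removed on the left and group and batch means removed on the right. Srebf2 has negative values to Idi1 (-0.51) and Cyp51 (-0.50) on the left, which become 0.16 and 0.11 on the right, while Idi1, Fdps and Cyp51 stay positively correlated in both.

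Likeness of other genes to the set was taken as the Pearson r of each of 11927 genes to the mean of the 8 scaled genes over 52 mice, group means removed. Outside the pathway Cyb5b, an electron carrier of the mitochondrial outer membrane, came first with 0.67, then Echs1, of fatty acid oxidation, with 0.64 and Trap1, a mitochondrial chaperone, with 0.62. The enzymes of the pathway outside the 8 that ranked within the first 25 were Msmo1 (0.63, rank 7), Nsdhl (0.59), Sc5d (0.59), Hsd17b7 (0.58) and Fdft1 (0.57), whereas Lbr (-0.12) and Ebp (-0.04) did not follow it. Of the 8 themselves, Srebf2 had -0.07. With batch removed as well, Srebf2 had 0.34 (rank 633) and Fdft1 0.53 (rank 46). Dhcr7 went from 0.34 (rank 737) to 0.67 (rank 7), while Lbr and Ebp stayed negative, at -0.20 and -0.09. Over the 12 group means in place of the mice, G6pc3 and Trappc6a were the most alike (0.95 each), followed by Nr1d1, a repressor of the circadian clock, with 0.94.

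The rest of the pathway was read from a list of other cholesterol synthesis enzymes, 12 of them measured. After arsenite 10 of 12 were below saline, median -0.16 and 0 called, and after both agents 10 of 12, median -0.18 and 1 called, where 0.755% of all probe sets were. The called gene was Dhcr7, whose enzyme makes cholesterol from its dehydro precursor. It lay between 7.54 and 7.97 in saline mice and between 6.47 and 7.15 after both agents, with no overlap, as 0.999% of all probe sets did. It fell by 1.04 on the log2 scale (SE 0.22, limma adjusted p = 0.0332). The call held in 12 of 21 alternatives and in 4 of 10 that left out 1 mouse (lost without mouse C, D or F of the combined group or saline mouse B, E or F, and also with all 55 arrays and without both saline mice D and E), with changes between -1.15 and -0.98 and adjusted p between 0.012 and 0.712. After arsenite alone Dhcr7 lay between 6.31 and 7.21 (-1.02, limma adjusted p = 0.521), also below every saline mouse, as 0.699% of all probe sets did. After dexamethasone it lay between 6.16 and 7.56 (-0.90, limma adjusted p = 0.0703). Pmvk, phosphomevalonate kinase of the mevalonate arm, was higher after both agents (7.80 to 9.78) than after arsenite (7.27 to 7.47), by 1.20 (SE 0.26, limma adjusted p = 0.037). That call held in 11 of 19 alternatives and in 3 of 9 that left out 1 mouse (lost without arsenite mouse A, B, C or F, or mouse C or E of the combined group, and also with array batch as a block, at 0.98 and an adjusted p of 0.0724, and with all 55 arrays), with changes between 0.90 and 1.40 and adjusted p up to 0.131.

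Of 5 measured genes of sterol efflux and the liver X receptor, 2 rose after dexamethasone, where 0.626% of all probe sets were called in either direction. Mylip, a ligase that degrades the LDL receptor, was at 9.01 to 9.86 against 8.09 to 8.88 in saline mice, a rise of 1.10 (limma adjusted p = 0.00558), and it also rose by 1.28 after both agents (limma adjusted p = 0.00164) and by 0.97 between arsenite and both agents (adjusted p = 0.0171). Abca1, the pump that exports cholesterol from cells, lay between 8.98 and 9.61 in saline mice and between 9.68 and 10.33 after dexamethasone, a rise of 0.84 (limma adjusted p = 0.0464). The Abca1 call held in 9 of 21 alternatives and in 1 of 10 that left out 1 mouse, the one without saline mouse E, with changes between 0.77 and 0.98, and it was also lost with all 55 arrays or median centring. The Mylip calls against saline held in 20 of 21 alternatives each and were lost with all 55 arrays, and that against arsenite held in 14 of 19, lost with all 55 arrays and without arsenite mouse C or F or mouse C or E of the combined group. The 8 synthesis genes differed from saline by -0.36 to 0.03 after the same injection. None of the measured genes for processing of the factor (5), sterol uptake and transport (3), sterol hydroxylation and esterification (4) or other uses of mevalonate (4) was called against saline after any injection, with medians between 0.00 and 0.32. Fatty acid synthesis genes, which the related Srebf1 factor controls, were all 6 lower than saline after arsenite (median -0.60) and 5 of 6 lower after both agents (median -0.54), none called, and all 6 were higher in saline mice than in uninjected controls (median 0.62). Of all probe sets, 46.7% and 48.5% were lower than saline after arsenite and after both agents. The fat marker mean was 5.92 in uninjected controls, 7.55 after saline, 5.67 after arsenite and 5.89 after both agents. The part of fat in these values was not tested. As a check of the dexamethasone label, 0 of 4 glucocorticoid target genes were called against saline. The differences were 0.07 for Fkbp5, -0.17 for Tsc22d3, -0.69 for Zbtb16 and -0.06 for Per1. Fkbp5 ranged from 7.70 to 10.04 in saline mice, 8.15 to 9.48 after dexamethasone and 7.06 to 7.83 in uninjected AIN-76A controls. The saline and dexamethasone ranges of Fkbp5 overlapped, and every dexamethasone mouse lay above the uninjected ones. The saline mean of Fkbp5, 8.84, was also above the uninjected mean of 7.45. Standing above the uninjected mice therefore does not mark the drug.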

How the data were processed

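Lung RNA of 55 mice was measured on 1 array each, and the authors deposited log2 values made by RMA (version and co-normalized arrays are not given in the sources used here). RMA subtracts background, gives all arrays 1 distribution of signals and averages the probes of a probe set, which compresses low signals and hides a shift of all genes. Groups came from the sample titles. Of 45101 probe sets, 64 controls were dropped. The platform annotation gives 34945 probe sets 1 symbol, 932 several and 9160 none. The 3 arrays left out had an SD of all values of 1.172 to 2.227, against 2.294 to 2.418 on the others, and the number of arrays limits the precision. Each comparison was fitted with limma 3.58.1 (R 4.3.3) in 1 model of the 4 injected groups, of the 4 groups of a diet (arsenite), of the 8 chronic groups (diet and its interactions) or of all 8 AIN-76A groups (saline against uninjected controls), and p-values were adjusted by Benjamini-Hochberg over 45037 probe sets, with 0.05 as the threshold. The 8 genes were also compared by 104 exact two-sided permutation tests (scipy 1.17.1), unadjusted for the number of genes and comparisons. The rank product method of the study was rewritten with 100 random orderings. The fit was tested on simulated data. All 8 genes were named in every comparison by their brightest probe set, and of the other lists those that passed the test. Genes and lists were chosen with earlier results of these data known. Alternatives were a filter on dim probe sets (log2 5 on at least 4 arrays), batch, replicate letter, array weights, centring, quantile normalization, all 55 arrays, 1 model of 12 groups, the mean of a gene's probe sets, a variance trend, rank products and each mouse left out in turn. Leaving out mice A and E of the AIN-76A 10 ppb water group, or saline mice D and E, for their fat or thymus markers, was added after seeing the data.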

Additional observations from a re-analysis of the deposited data

Results flagged for a closer look

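In 9 of 80 sets of a gene in a group of 4 or 5 mice, 1 mouse stood apart from its group by Dixon's criterion, which chance meets in about 1 in 20 sets. For Idi1 these were mouse C after arsenite, at 7.69 (others 8.38 to 8.47), mouse A after both agents, at 7.61 (others 8.10 to 8.24), and mouse A with 10 ppb in water on LRD-5001, at 8.39 (others 8.78 to 8.84). Arsenite mouse C was also apart for Srebf2, at 7.73 (others 7.97 to 8.02). For Fdps they were mouse C with 10 ppb in water on AIN-76A, at 8.70 (others 8.51 to 8.53), and mouse F of the LRD-5001 controls, at 8.52 (others 9.16 to 9.25). Mouse C with arsenite in LRD-5001 food was high for Hmgcs1, at 10.46 (others 10.17 to 10.22), and low for Lss, at 6.17 (others 6.64 to 6.78). Cyp51 had mouse B with 10 ppb in water on LRD-5001 at 7.36 (others 7.60 to 7.63).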

How the results depend on the processing

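None of the 8 genes was called in any of 18 comparisons under 65 alternative settings of limma, with a smallest adjusted p of 0.0538, for Srebf2 after dexamethasone with array weights. The plain p of the rank product, unadjusted over probe sets, listed 5 genes after arsenite, 5 after both agents, 3 after both against dexamethasone, 3 after both against arsenite, 1 after dexamethasone, 2 for the LRD-5001 against the AIN-76A controls, 2 with arsenite in AIN-76A food, and 1 each with arsenite in LRD-5001 food and 100 ppb in LRD-5001 water. After both agents 8 of 8 genes were below saline in every setting run. Of 1208 alternative values of single log2 changes, 46 had the other sign, all of changes that were not called, and the causes were not tested. The calls of Dhcr7, Pmvk and Abca1 held in 12 of 21, 11 of 19 and 9 of 21 alternatives.

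After dexamethasone the values of the other sign were, with batch as a block, -0.05 for Fdps, 0.06 for Lss and -0.12 for Insig1 (-0.04 with batch as a random block), with the mean of the probe sets -0.03 for Fdps, with array weights 0.03 for Cyp51, and without saline mice D and E 0.15 for Cyp51. Without those mice the arsenite values were 0.04 for Cyp51 and 0.01 for Insig1, in a comparison where arsenite and saline mice shared no batch. With batch as a block, both agents against dexamethasone gave 0.02 for Hmgcs1 and -0.03 for Srebf2, and both against arsenite 0.05 for Insig1 and -0.17 for Srebf2 (-0.02 as a random block). With all 55 arrays, both against arsenite gave 1.28 for Hmgcs1, 0.50 for Idi1 and 0.63 for Insig1. For diet, Srebf2 was at -0.01 without mice A and E of the AIN-76A 10 ppb water group.

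Leaving out 1 mouse at a time, these changes ranged, for diet, from -0.03 to 0.11 for Srebf2, after dexamethasone from -0.15 to 0.06 for Sqle, -0.05 to 0.15 for Fdps, -0.19 to 0.05 for Lss, -0.18 to 0.11 for Cyp51 and -0.15 to 0.23 for Insig1, and after arsenite from -0.32 to 0.03 for Cyp51. For both agents they ranged from -0.03 to 0.20 for Srebf2 against dexamethasone, and against arsenite from -0.17 to 0.05 for Hmgcs1, -0.04 to 0.27 for Fdps and -0.19 to 0.01 for Insig1.

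The replicate letters did not pair the mice: deviations of mice with the same letter in different groups had a median r of 0.01 over 206 pairs, against -0.007 for other letters, while mice of the same batch had 0.194. With the letter as a replicate block 0 of the 8 genes were called, Cyp51 was at 0.06 after dexamethasone and Fdps at -0.03 for both agents against arsenite. That block also ended the calls of Dhcr7 after both agents (adjusted p = 0.155) and Abca1 after dexamethasone (adjusted p = 0.0831).

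Calls over all probe sets moved more: 282 after dexamethasone became 8 with all 55 arrays and 1213 with array weights, 340 after both agents became 7 and 1036, and 280 for both against arsenite became 34 and, in 1 model of 12 groups, 687. Leaving out 1 mouse moved them to 47 to 402, 124 to 568 and 57 to 385, and, without mouse C of that group, gave 369 calls, from 0, with 10 ppb in AIN-76A water and 683 for its interaction with diet.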

Other observations

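The 3 arrays left out from the comparisons gave these log2 values. Arsenite mouse E read 3.12 for Hmgcs1, 3.63 for Fdps, 4.17 for Insig1, 4.91 for Idi1, 4.97 for Lss, 5.67 for Cyp51, 5.72 for Sqle and 7.21 for Srebf2. Mouse B with 100 ppb in water on AIN-76A read between 5.25 for Cyp51 and 8.43 for Hmgcs1. Mouse C with 10 ppb in water on LRD-5001 read 10.30 for Hmgcs1, 8.06 for Cyp51 and 8.23 for Srebf2, and 7.19 for Fdps and 7.51 for Sqle.

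For single genes, the gene with the highest r over the 52 mice, with group means removed, was another enzyme of the pathway for 1 of 8, Cyp51. For the other 7 it was Dbt (Hmgcs1), Plekhb1 (Sqle), Rmdn2 (Idi1), Scp2 (Fdps), Pnpla2 (Lss), Crls1 (Insig1) and Spock2 (Srebf2). Among the 3 highest, Idi1 and Fdps had an r of 0.78 to each other, Fdps had 0.78 to Msmo1, a sterol oxidase of the same pathway, and Cyp51 had 0.79 to Fdft1, squalene synthase. With batch removed as well, Fdps had 0.79 to Msmo1 and 0.77 to Nsdhl, and Insig1 had 0.75 to Dbi, an acyl-CoA binding protein, and 0.73 to Acly, which supplies acetyl-CoA for lipid synthesis. Srebf2 had 0.91 to Spock2 before batch was removed.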
